A study of Mus musculus with 18 samples.

Results

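The effect of a vitamin A-enriched diet on gene expression in the mouse urinary bladder was taken as the mean, with equal weight, of 3 diet differences, each vitamin A minus normal diet within its own condition. The conditions were saline (collected 1 day after injection), 1 day after cyclophosphamide (CP) and 3 days after CP. All 18 libraries of the series entered the average, 9 from each diet, and 19323 of 46333 named genes had enough counts to be tested. Each library was RNA from the whole bladder of a wild type female BALB/c mouse aged 8 weeks, with 3 mice in each of 6 groups. The groups were vitamin A diet with saline against normal diet with saline, vitamin A diet 1 day after CP against normal diet 1 day after CP, and vitamin A diet 3 days after CP against normal diet 3 days after CP. CP (150 mg/kg) or saline was injected intraperitoneally 1 week after the start of the enriched diet. The labels give that diet as 566081 UI retinyl acetate per kg, whereas the series text names retinyl palmitate at 36 times the normal amount. Mice were caged in groups of 3 with no cage given per mouse, so cage and group cannot be told apart.

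CP is an alkylating drug whose metabolites injure the urothelium, the layered epithelium of the bladder, which then regrows from its basal cells. Dietary retinyl esters are hydrolysed to retinol, which is stored again as ester by Lrat or oxidised through retinaldehyde to retinoic acid, the ligand of the nuclear receptors Rara, Rarb and Rarg. The Cyp26 enzymes oxidise and remove retinoic acid, and several genes of this chain are themselves transcribed in response to it. In epithelia such as the urothelium, retinoic acid favours specialised differentiation, and vitamin A deficiency leads to squamous metaplasia.

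Markers of the tissue were present in every library. Upk2, a uroplakin of the urothelial surface, had 279 to 1075 CPM on the vitamin A diet and 554 to 1205 CPM on the normal diet, where CPM is counts per 1000000 of the library total after edgeR's TMM scaling. Myh11, the smooth muscle myosin of the bladder wall, had 1719 to 7336 CPM on the vitamin A diet and 1667 to 7583 CPM on the normal diet. Library totals ran from 19554132 to 34598952 counts. Vitamin A replicate 3 at 1 day stood apart with the highest mitochondrial share, 3.82% of counts against a median of 2.39%, and with the lowest correlation with its own group, 0.936. Vitamin A replicate 2 at 3 days held 14.2% of its counts on genes under 1 kb, against a median of 9.08%. With both libraries left out, the average effect passed the threshold for 31 genes, among them all 15 that passed with every library in.

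The promoters of 3 of the genes that differed between the diets are shown here, because the average effect on Cyp26b1 and Elf5 passed the threshold in all 31 alternatives run for the average, and Pdk4 passed on the average alone. Each is a RefSeq window of 300 bases, from 250 before to 50 after the annotated start, on build GRCm38.p6, written 5′ to 3′ on the gene's strand. Capitals mark AGTTCA on either strand, 1 of 4 spellings of the half-site of retinoic acid receptors that were searched. The others were AGGTCA, which 16.3% of mouse windows of this length hold on either strand, GGGTCA, held by 13.7%, and GGTTCA, held by 10.4%. The Cyp26b1 window lies at chr6:84593761-84594060 on the minus strand, the first of 2 Elf5 windows at chr2:103411848-103412147 on the plus strand and the Pdk4 window at chr6:5496229-5496528 on the minus strand.
Cyp26b1: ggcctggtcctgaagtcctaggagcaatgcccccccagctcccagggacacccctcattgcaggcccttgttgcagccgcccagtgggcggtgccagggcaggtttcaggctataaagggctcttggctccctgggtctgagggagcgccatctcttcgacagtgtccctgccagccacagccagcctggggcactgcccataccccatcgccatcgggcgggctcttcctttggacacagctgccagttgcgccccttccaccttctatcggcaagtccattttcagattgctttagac
Elf5: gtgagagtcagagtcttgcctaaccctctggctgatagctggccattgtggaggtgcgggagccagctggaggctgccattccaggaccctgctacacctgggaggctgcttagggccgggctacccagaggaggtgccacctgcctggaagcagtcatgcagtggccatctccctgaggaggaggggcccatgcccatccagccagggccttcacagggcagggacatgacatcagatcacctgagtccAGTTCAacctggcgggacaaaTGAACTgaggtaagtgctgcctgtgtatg
Pdk4: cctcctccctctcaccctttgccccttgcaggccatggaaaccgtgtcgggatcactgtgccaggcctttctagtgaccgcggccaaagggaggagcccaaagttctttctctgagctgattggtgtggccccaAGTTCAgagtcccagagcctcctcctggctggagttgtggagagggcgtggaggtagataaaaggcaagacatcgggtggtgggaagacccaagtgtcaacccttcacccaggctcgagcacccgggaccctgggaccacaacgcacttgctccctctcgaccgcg
The Elf5 window shown holds AGTTCA 2 times, 1 on each strand, and the Pdk4 window holds it 1 time. The second Elf5 window, at chr2:103423818-103424117 on the plus strand and not printed here, holds none of the 4 spellings. The same was true of the Cyp26b1 window. Windows were searched for 9 of the 15 genes, 11 windows between them, and 6 of the 11 held at least 1 half-site. The Hilpda windows overlap and share the same half-site, and by gene 5 of the 9 held at least 1. No window was searched for the rest of the 15, Cd14 and Apcdd1 among them, so nothing is said of their promoters. Over all 32851 mouse windows of this length the share with any half-site was 43.7%, and the share with AGTTCA was 13.99%. Paired half-sites in the same direction, 5, 2 or 1 bases apart, occurred in 0 of the 11 windows and in 0.097%, 0.268% and 0.222% of all windows. A match or its lack in this window is a description only.

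Averaged over the conditions, 9 genes were higher and 6 lower on the vitamin A diet at an adjusted p under 0.05. These 15 genes are 0.0776% of the 19323 tested, 0.0466% for higher and 0.0311% for lower. The test was edgeR's quasi-likelihood test with Benjamini-Hochberg adjustment over all genes tested. Higher were Cyp26b1 of retinoic acid breakdown, the epithelial genes Elf5, Padi1 and Cd24a, Hilpda of lipid droplets, Pdk4 and Hk2 of glucose use, the lipopolysaccharide co-receptor Cd14, and Omp. Lower were Fstl4, Ank, Apcdd1, Gsdma, Fcrls and Adamdec1. At an unadjusted p under 0.05 there were 1448 genes, or 7.49%, and the median log2 ratio over all genes was 0.0008. The change passed a factor of 2 in 7 of the 15 genes. The count was 71 without vitamin A replicate 1 at 1 day (36 higher, 35 lower), 27 without vitamin A replicate 1 at 3 days (18 higher) and 23 without vitamin A replicate 3 at 3 days (14 higher). It was 22 without vitamin A replicate 2 at 3 days (14 higher). There were 3 lower without vitamin A saline replicate 2 and 11 were lower without vitamin A replicate 2 at 1 day. DESeq2 called 124 genes and limma voom with sample weights 105, both sets with all 15 among them.

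**Figure D1:**
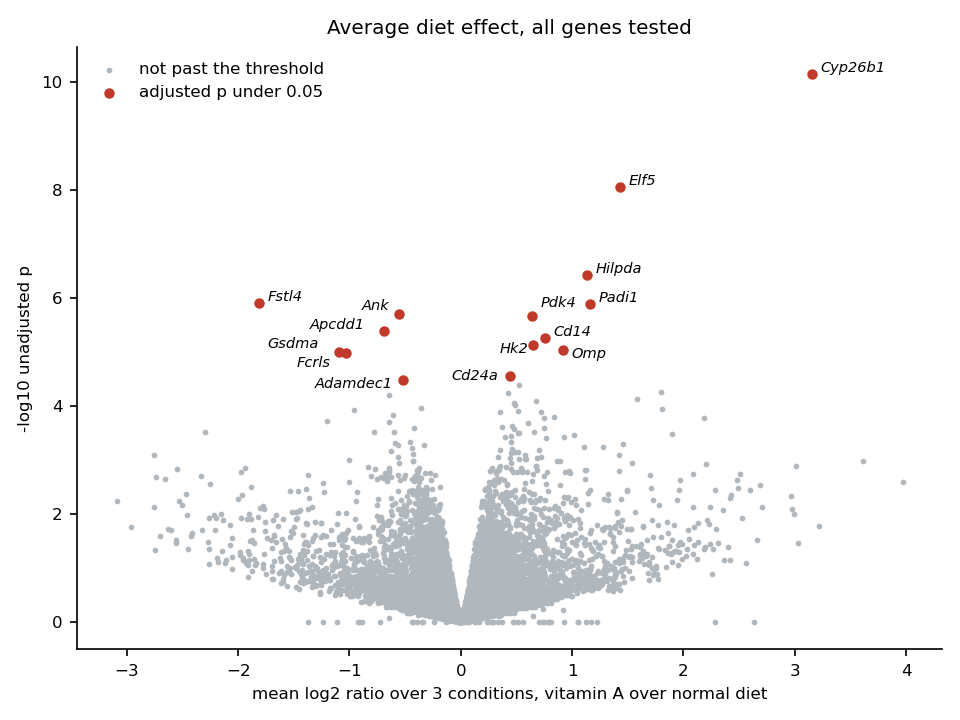
Mean log2 ratio over the 3 conditions (x axis, vitamin A over normal diet) against the unadjusted p of the edgeR test on a negative log10 scale (y axis), 1 point for each of 19323 genes. The 15 red points pass the adjusted threshold of 0.05, 9 to the right of 0 and 6 to the left, with Cyp26b1 farthest right and highest.

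Cyp26b1, which oxidises retinoic acid to inactive products, was the most changed of the 15 genes (chromosome 6, 84548396 to 84570890, minus strand; gene positions are on GRCm39). In saline it had 44.4, 59.6 and 32.1 CPM on the vitamin A diet, against 4.53, 1.94 and 7.57 CPM on the normal diet. At 1 day after CP the vitamin A bladders had 23.5, 10.9 and 14.6 CPM and the normal diet bladders 1.35, 1.04 and 2.48 CPM. At 3 days the values were 17.5, 16.2 and 17.3 CPM on the vitamin A diet and 2.40, 2.58 and 1.80 CPM on the normal diet. The diets did not overlap in any condition, and the lowest vitamin A library, 10.9 CPM, lay above the highest normal diet library, 7.57 CPM. On average the log2 ratio was 3.16 ± 0.24 (SE), which is 8.94-fold (edgeR adjusted p = 1.41e-06). By condition it was 3.26 in saline, 3.32 at 1 day and 2.90 at 3 days, with no difference detected between the 3 (unadjusted p = 0.718, edgeR test with 2 degrees of freedom). Cyp26b1 was the 1 gene of the 15 that passed the threshold in each condition on its own. The single-condition calls were lost in some alternatives, with log2 ratios of 2.76 to 3.81 over the alternatives. The 3-day call was lost without any 1 of the 6 libraries of that time (edgeR adjusted p = 0.0678 to 0.362), without the count filter (0.104), without both libraries that stood apart (0.183) and with the replicate block (0.37). The saline call was lost without normal diet replicate 1 (0.0731), in a fit of the 6 saline libraries (0.111) and with the replicate block (0.0928). The 1-day call was lost without normal diet replicate 1 (0.0554) and in a fit of the 6 libraries of that time (0.0578). Cyp26a1 and Cyp26c1, the other members of the family, had too few counts to be tested, with at most 0.795 CPM and 0.282 CPM in any library.

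Of the other genes that carry, store or oxidise retinoids, none passed the threshold on the average. Lrat, which esterifies retinol for storage, had 16.3 ± 4.90, 2.90 ± 1.57 and 9.48 ± 3.19 CPM in vitamin A bladders in saline, at 1 day and at 3 days, against 5.70 ± 3.13, 1.12 ± 0.722 and 2.55 ± 1.36 CPM in normal diet bladders (mean ± SD, n = 3 in each group here and below). Its mean log2 ratio was 1.58 ± 0.31, positive in each condition, with an edgeR adjusted p of 0.0731. Rarb, the retinoic acid receptor whose own gene is a known target of the ligand, had 20.1, 14.6 and 16.9 CPM in saline on the vitamin A diet against 11.1, 13.1 and 10.5 CPM on the normal diet. At 1 day Rarb had 17.3, 21.9 and 19.5 CPM on the vitamin A diet and 12.8, 16.4 and 16.9 CPM on the normal diet, and at 3 days 18.2, 19.7 and 24.5 CPM on the vitamin A diet and 18.2, 11.7 and 16.7 CPM on the normal diet. The Rarb values of the 2 diets did not overlap in any condition, though at 3 days the lowest on the vitamin A diet, 18.25 CPM, was next to the highest on the normal diet, 18.16 CPM. The mean log2 ratio was 0.45 ± 0.11 and the edgeR adjusted p 0.206.

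Dhrs3, which returns retinaldehyde to retinol, had a higher level per kilobase of gene length than Lrat, with 71.2 FPKM (a level scaled to gene length and library size) against 2.99 FPKM in vitamin A saline bladders. In saline it had 349 ± 14.2 CPM on the vitamin A diet and 244 ± 13.3 CPM on the normal diet, and at 3 days 333 ± 42.3 CPM on the vitamin A diet and 223 ± 17.9 CPM on the normal diet. At 1 day the means were 246 ± 59.9 CPM on the vitamin A diet and 250.2 ± 9.44 CPM on the normal diet, so the 1-day difference was near 0 (log2 -0.02). The mean log2 ratio of Dhrs3 was 0.36 ± 0.09 (edgeR adjusted p = 0.2; unadjusted p for a difference between conditions 0.0208). Crabp2, which carries retinoic acid to its receptors, stood at 0.658 to 1.99 CPM on the vitamin A diet and 0.205 to 1.08 CPM on the normal diet (mean log2 0.77 ± 0.36, edgeR adjusted p = 0.645).

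Aldh1a3, which makes retinoic acid from retinaldehyde, had its largest diet difference at 1 day. At 1 day it had 8.41, 13.4 and 20.8 CPM on the vitamin A diet, all above the 3.23, 4.69 and 2.07 CPM of the normal diet. In saline the means were 2.40 ± 0.719 CPM on the vitamin A diet and 2.66 ± 0.704 CPM on the normal diet, and at 3 days 7.51 ± 2.40 CPM on the vitamin A diet and 7.28 ± 2.33 CPM on the normal diet. The diet differences were log2 -0.15 in saline, 2.09 at 1 day and 0.04 at 3 days, so the mean of 0.66 ± 0.22 rests on the 1-day bladders (edgeR adjusted p of the mean = 0.405; unadjusted p for a difference between conditions = 0.000991). The partner enzymes Aldh1a1 and Aldh1a2 had mean log2 ratios of -0.13 and -0.31, neither past the threshold (edgeR adjusted p = 0.845 and 0.651). Adh7, another of the retinoid genes, went opposite to Aldh1a3 at 1 day. Its diet differences were log2 0.41 in saline, -1.44 at 1 day and -0.05 at 3 days (mean -0.36 ± 0.17, edgeR adjusted p = 0.667). At 1 day alone the edgeR adjusted p was 0.0244 for Aldh1a3 and 0.0457 for Adh7. No gene passed at 1 day without normal diet replicate 1 of that time.

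Over the 27 tested genes of retinoid handling, 1 rose (Cyp26b1) and 0 fell, 17 had a positive mean log2 ratio, and the median was 0.28 against 0.0008 over all genes. Of the 27, 9 were positive in all 3 conditions and 1 negative in all 3. The summed level of the list was higher in saline, 1882 to 2044 CPM on the vitamin A diet against 1482 to 1542 CPM on the normal diet. At 1 day it was lower, 1139 to 1264 against 1413 to 1494 CPM, and at 3 days the diets overlapped, 1592 to 2035 against 1393 to 1633 CPM. In the list of retinoic acid receptors and target genes 1 of 38 rose, again Cyp26b1, 27 were positive and the median was 0.10. There, 14 genes were positive in all 3 conditions and 4 negative in all 3. The receptors Rara, Rarg, Rxra and Rxrb had mean log2 ratios of 0.09, 0.02, -0.19 and -0.05, none past the threshold. The corepressor Nrip1, a known retinoic acid target, had 0.27 (edgeR adjusted p = 0.587). The lists share several genes, among them Cyp26b1, Lrat, Dhrs3 and Crabp2, so their counts are not separate evidence.

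**Figure D2:**
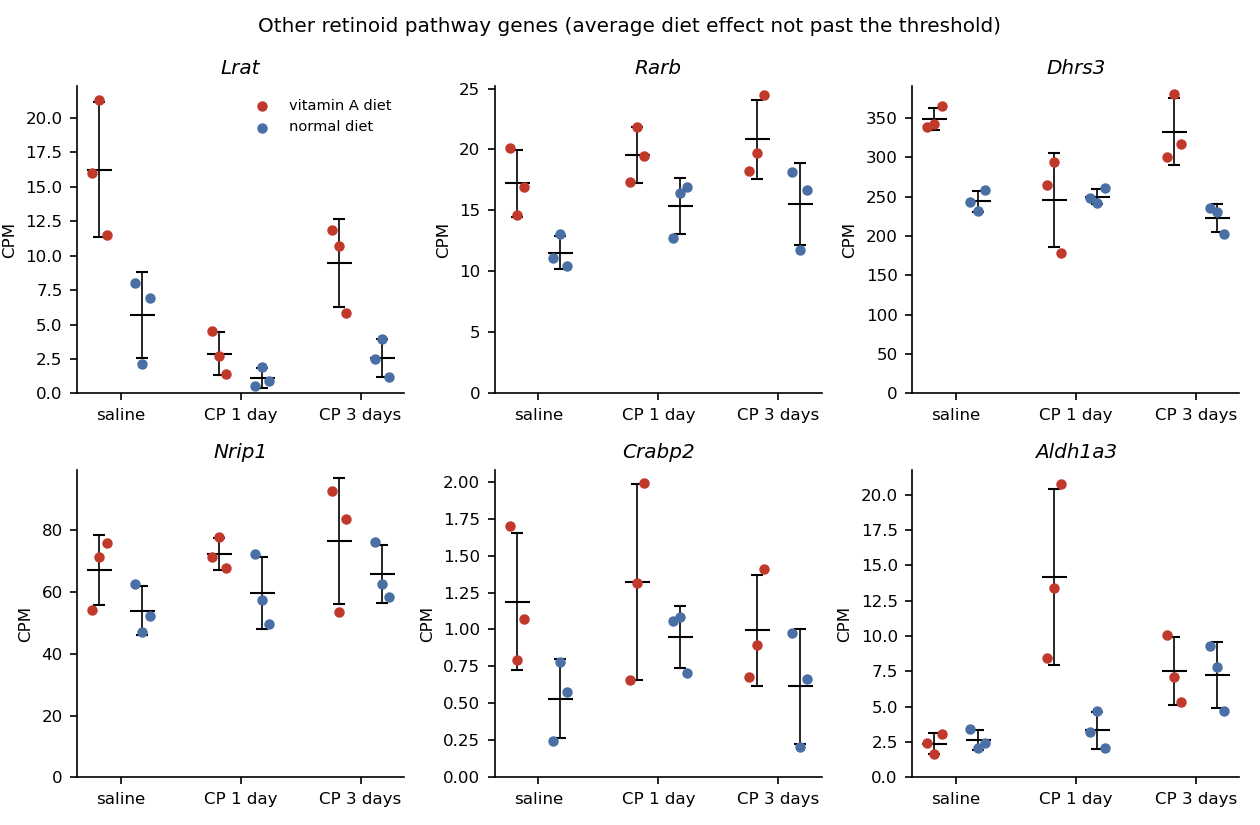
CPM of Lrat, Rarb, Dhrs3, Nrip1, Crabp2 and Aldh1a3 (y axis, 1 panel per gene) in saline, 1 day and 3 days after CP (x axis). Points are single bladders, red for the vitamin A diet on the left of each pair and blue for the normal diet, and black bars are mean ± SD with n = 3. Rarb is higher in every vitamin A bladder within each condition, and the Aldh1a3 diets part at 1 day only.

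Elf5, a transcription factor of the ETS family that directs differentiation in secretory epithelia, was higher on the vitamin A diet (chromosome 2, 103242443 to 103281334, plus strand). In saline the vitamin A bladders had 60.0, 72.9 and 51.6 CPM, against 13.8, 19.4 and 16.9 CPM in normal diet bladders. At 1 day they had 28.1, 24.1 and 18.4 CPM, against 9.83, 14.1 and 11.8 CPM on the normal diet. At 3 days they had 37.0, 45.6 and 38.4 CPM, against 21.4, 8.86 and 14.1 CPM on the normal diet. No vitamin A value fell within the normal diet range of its condition. Averaged, the log2 ratio was 1.44 ± 0.14, or 2.70-fold (edgeR adjusted p = 8.71e-05). The saline difference, the 1 that passed on its own, did not pass without vitamin A replicate 2 (edgeR adjusted p = 0.0562), without normal diet replicates 1 (0.119) or 3 (0.0838), or with the replicate block (0.0928). The differences were log2 1.88 in saline, 0.98 at 1 day and 1.45 at 3 days (unadjusted p for a difference between conditions 0.0614). Per kilobase of gene length Elf5 lay above Cyp26b1, with 25.9 FPKM against 3.58 FPKM in vitamin A saline bladders. Elf5 was the 1 gene that passed of 25 ETS and urothelial transcription factors, of which 10 had a positive mean log2 ratio (median -0.04). Its relative Elf3 had 0.42 ± 0.13 (edgeR adjusted p = 0.359), and Sox9 had 0.93 ± 0.25, positive in each condition (edgeR adjusted p = 0.256).

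Padi1, an enzyme of cornifying epithelia that turns arginine residues into citrulline, was also higher (chromosome 4, 140540292 to 140573089, minus strand). Vitamin A bladders had 19.9, 19.9 and 24.7 CPM in saline, against 10.5, 9.42 and 8.65 CPM on the normal diet, and 79.9, 137 and 127 CPM at 1 day, against 30.8, 35.8 and 42.6 CPM on the normal diet. At 3 days the diets overlapped, with 74.5, 59.0 and 113 CPM on the vitamin A diet and 67.7, 62.0 and 27.7 CPM on the normal diet. Over the 3 conditions the log2 ratio was 1.16 ± 0.16, or 2.23-fold (edgeR adjusted p = 0.005; 1.18 in saline, 1.66 at 1 day and 0.65 at 3 days). Gm13032 overlaps Padi1 on the opposite strand at 1.84 CPM, and reads of the 2 genes cannot be told apart where the strand of the library is not given.

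Cd24a, a surface glycoprotein of many epithelial and blood cells, was higher (chromosome 10, 43454433 to 43460261, plus strand). It had 179.6, 155 and 192 CPM in saline on the vitamin A diet, against 139, 141 and 109.5 CPM on the normal diet. The 1-day values were 230.3, 309 and 272 CPM on the vitamin A diet and 219.9, 195 and 219 CPM on the normal diet, and at 3 days 228, 272 and 238 CPM on the vitamin A diet and 188, 158 and 163 CPM on the normal diet. The gap between the diets was small but open in all 3 conditions (mean log2 0.44 ± 0.08, 1.36-fold, edgeR adjusted p = 0.0385). Its call held in 6 of the 18 fits that left out 1 library.

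Gsdma, a pore-forming gasdermin of skin and upper gut epithelium, was lower on the vitamin A diet (chromosome 11, 98555163 to 98568534, plus strand). It averaged 2.62 ± 0.773 CPM in vitamin A saline bladders and 4.59 ± 0.474 CPM in normal diet saline bladders. At 1 day the means were 4.71 ± 0.414 CPM on the vitamin A diet and 13.2 ± 1.55 CPM on the normal diet, and at 3 days 4.43 ± 2.39 CPM on the vitamin A diet and 8.87 ± 2.11 CPM on the normal diet. The diets overlapped at 3 days only, where vitamin A replicate 3 had 7.16 CPM and normal diet replicate 2 had 6.52 CPM. The average came to a log2 ratio of -1.10 ± 0.18, 2.14-fold lower (edgeR adjusted p = 0.0156). That p was 0.0592 without vitamin A saline replicate 1, 0.0586 without vitamin A saline replicate 2 and 0.0505 without normal diet saline replicate 3. Gsdmd, the gasdermin that executes pyroptosis, missed the threshold with a mean log2 ratio of 0.53 ± 0.10 (edgeR adjusted p = 0.0502; 0.85 in saline, 0.53 at 1 day and 0.21 at 3 days). Of 6 gasdermins tested, 0 rose and Gsdma fell, and the other 5 had positive mean log2 ratios. Only 2 were positive in all 3 conditions, and the list median was 0.95 in saline, 0.26 at 1 day and -0.15 at 3 days.

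Marker genes of the urothelial layers did not pass the threshold. Krt20, a keratin of umbrella cells, had a mean log2 ratio of -0.44 ± 0.11 with the same sign in each condition (edgeR adjusted p = 0.188), and Upk2 had -0.34 ± 0.11 (edgeR adjusted p = 0.371; -0.20 in saline, -0.75 at 1 day and -0.07 at 3 days). Krt5, a basal keratin, had -0.26 ± 0.11 as the mean of log2 -0.74 in saline, 0.34 at 1 day and -0.37 at 3 days (edgeR adjusted p = 0.595; unadjusted p for a difference between conditions 0.00257). Pkp1, a plakophilin of desmosomes, had 9.35 ± 1.55, 16.7 ± 2.85 and 22.9 ± 12.8 CPM on the vitamin A diet in saline, at 1 day and at 3 days, against 17.9 ± 1.29, 36.8 ± 14.4 and 40.0 ± 6.33 CPM on the normal diet. Its diets did not overlap in any condition, and its mean log2 ratio of -0.96 ± 0.20 missed the threshold (edgeR adjusted p = 0.0881). Trim29 had -0.64 ± 0.12 (edgeR adjusted p = 0.0655). None of 26 umbrella cell and differentiation genes, 19 basal genes, 24 squamous keratinisation genes or 21 tight junction genes passed, and their medians were -0.09, 0.07, 0.34 and -0.06. In the tight junction list 17 of 21 mean log2 ratios were negative, 6 of them in all 3 conditions, and the other 4 were positive in all 3. The summed level of that list overlapped between the diets in each condition. In the squamous list 19 of 24 were positive, 5 of them in all 3 conditions, and 3 genes were negative in all 3. Over all 19323 genes tested, 2652 were positive in all 3 conditions and 2866 negative in all 3. In saline, at 1 day and at 3 days the tight junction medians were -0.09, -0.07 and -0.02, and the squamous medians 0.22, 0.60 and -0.04. In whole bladder RNA, fewer cells of a type and less RNA per cell cannot be told apart.

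Hilpda, a lipid droplet protein that restrains triglyceride breakdown, was higher on the vitamin A diet (chromosome 6, 29272487 to 29275448, plus strand). The saline bladders had 31.6, 31.4 and 30.6 CPM on the vitamin A diet and 16.3, 14.7 and 16.2 CPM on the normal diet. At 1 day there were 53.8, 108 and 116 CPM on the vitamin A diet, against 31.3, 29.5 and 36.0 CPM on the normal diet. At 3 days there were 25.9, 44.2 and 37.6 CPM on the vitamin A diet, against 26.6, 13.97 and 17.3 CPM on the normal diet. The diets were apart in saline and at 1 day, and at 3 days vitamin A replicate 1 fell just under normal diet replicate 1. The mean log2 ratio was 1.13 ± 0.15, or 2.19-fold (edgeR adjusted p = 0.00247; 0.99 in saline, 1.52 at 1 day and 0.90 at 3 days).

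Pdk4, the kinase that shuts off pyruvate dehydrogenase and spares glucose, was higher in every condition (chromosome 6, 5483351 to 5496278, minus strand). It had 81.2, 95.8 and 87.2 CPM in saline on the vitamin A diet and 54.6, 61.1 and 68.1 CPM on the normal diet. At 1 day it had 81.9, 52.9 and 71.8 CPM on the vitamin A diet and 49.4, 40.4 and 44.1 CPM on the normal diet, and at 3 days 78.6, 64.5 and 55.3 CPM on the vitamin A diet and 42.6, 40.1 and 33.2 CPM on the normal diet. No vitamin A value reached into the normal diet range of its condition. On average the log2 ratio was 0.64 ± 0.09, or 1.56-fold (edgeR adjusted p = 0.00592), while no single condition passed on its own (edgeR adjusted p 0.945, 0.105 and 0.389). Hk2, the hexokinase that starts glycolysis, averaged 23.3 ± 3.84, 30.5 ± 0.872 and 31.4 ± 9.11 CPM in vitamin A bladders in saline, at 1 day and at 3 days, against 13.1 ± 0.188, 20.8 ± 2.73 and 21.5 ± 2.74 CPM in normal diet bladders (chromosome 6, 82702004 to 82751435, minus strand). Its mean log2 ratio was 0.65 ± 0.10, or 1.56-fold (edgeR adjusted p = 0.0142), and its diets touched at 3 days, where normal diet replicate 3 had 24.24 CPM and vitamin A replicate 2 had 24.23 CPM.

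Fat cell markers were read beside these 3 genes. All 20 adipocyte markers tested had a positive mean log2 ratio with a median of 1.27, against 50.2% positive over all genes tested. None, 0 of the 20, were called by edgeR, though 11 (55%) had an unadjusted p under 0.05, against 7.49% of all genes tested. Lep, the hormone leptin, had the largest mean log2 ratio of those named, 2.48 ± 0.70 (edgeR adjusted p = 0.279). The list median was 1.63 in saline, 1.19 at 1 day and 0.13 at 3 days. The summed level of the list was 1647 to 2998 CPM in vitamin A saline bladders and 1340 to 1597 CPM in normal diet saline bladders. At 1 day the sums were 1877, 1073 and 4842 CPM on the vitamin A diet and 1118 to 1435 CPM on the normal diet, and at 3 days 963 to 1488 CPM on the vitamin A diet and 1028 to 1559 CPM on the normal diet. In saline, where the sums did not overlap, none of the 3 genes did. At 1 day the vitamin A bladder with the highest sum, replicate 3, had the highest Hilpda, 116.1 CPM. The one with the lowest sum, replicate 2, had 107.5 CPM of Hilpda and the lowest Pdk4, 52.91 CPM. Replicate 1, with the middle sum, had the lowest Hilpda and the highest Pdk4. At 3 days the sums overlapped, and so did Hilpda and Hk2, while Pdk4 did not. The part of adipocyte RNA in the Hilpda, Pdk4 and Hk2 results was not tested. The lists of retinoid handling and receptor targets hold Lpl, Lipe and Pck1, which are adipocyte markers too.

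Among immune genes, Cd14, the co-receptor that presents lipopolysaccharide to Toll-like receptor 4, was higher (chromosome 18, 36858117 to 36859868, minus strand). The saline bladders had 36.8, 30.9 and 42.1 CPM on the vitamin A diet and 19.9, 23.6 and 23.2 CPM on the normal diet, and the 1-day bladders 79.6, 128 and 96.9 CPM on the vitamin A diet and 52.1, 49.95 and 47.4 CPM on the normal diet. At 3 days the diets overlapped, with 51.4, 69.3 and 71.7 CPM on the vitamin A diet and 61.5, 33.3 and 38.9 CPM on the normal diet. Averaged, the log2 ratio was 0.76 ± 0.12, or 1.69-fold (edgeR adjusted p = 0.0121). Cd14 was the 1 gene that passed of 22 macrophage and monocyte markers, which had 12 positive mean log2 ratios and a median of 0.02. Summed over that list, vitamin A bladders had 575 to 959, 570 to 790 and 876 to 1390 CPM in saline, at 1 day and at 3 days, against 546 to 640, 709 to 832 and 1002 to 1406 CPM in normal diet bladders.

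Fcrls, a scavenger receptor-like gene of mouse macrophages and microglia, was lower (chromosome 3, 87158043 to 87171060, minus strand). The 1-day values were 1.79, 2.21 and 2.14 CPM on the vitamin A diet and 5.06, 5.74 and 4.31 CPM on the normal diet. At 3 days it had 3.83, 3.37 and 1.501 CPM on the vitamin A diet and 9.05, 6.78 and 7.76 CPM on the normal diet. In saline the diets overlapped, at 6.02 ± 0.946 CPM on the vitamin A diet and 7.64 ± 1.28 CPM on the normal diet. Over the 3 conditions the log2 ratio was -1.03 ± 0.17, 2.04-fold lower (edgeR adjusted p = 0.0156; unadjusted p for a difference between conditions 0.0312). That edgeR adjusted p was 0.0586 without vitamin A saline replicate 2, 0.0507 without normal diet saline replicate 1 and 0.0581 without normal diet saline replicate 2.

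Adamdec1, an ADAM-like metalloprotease, was the 1 gene of the 15 whose sign differed between conditions (chromosome 14, 68800836 to 68819521, minus strand). In saline it had 35.0 ± 2.45 CPM on the vitamin A diet and 33.6 ± 0.166 CPM on the normal diet. At 1 day it was lower, with 18.8, 26.1 and 13.3 CPM on the vitamin A diet and 44.2, 48.3 and 44.0 CPM on the normal diet, and at 3 days the values were 117, 139.7 and 110.3 CPM on the vitamin A diet and 168, 152 and 162 CPM on the normal diet. The diets were apart at 1 and 3 days and overlapped in saline. Its mean log2 ratio of -0.52 ± 0.10 (edgeR adjusted p = 0.0427) averages log2 0.06 in saline, -1.23 at 1 day and -0.39 at 3 days, and the unadjusted p for a difference between conditions was 0.000126. The call held in 4 of the 18 fits that left out 1 library.

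Fstl4, a secreted follistatin-like protein, was the gene with the largest decrease of the 6 (chromosome 11, 52655320 to 53083277, plus strand). In saline it had 2.49, 2.37 and 2.35 CPM on the vitamin A diet and 12.8, 8.69 and 8.44 CPM on the normal diet. At 1 day it had 3.06, 1.95 and 0.795 CPM on the vitamin A diet and 15.3, 4.45 and 7.04 CPM on the normal diet, and at 3 days 4.18, 4.09 and 2.97 CPM on the vitamin A diet and 8.13, 5.49 and 12.1 CPM on the normal diet. The highest of the 9 vitamin A libraries, 4.18 CPM, lay below the lowest normal diet library, 4.45 CPM. The average came to a log2 ratio of -1.81 ± 0.26, 3.51-fold lower (edgeR adjusted p = 0.005; -2.05 in saline, -2.20 at 1 day and -1.19 at 3 days).

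Ank, a membrane protein that lets pyrophosphate and its precursor leave the cell, was lower in every condition (chromosome 15, 27466763 to 27594995, plus strand). Vitamin A bladders had 40.9, 32.9 and 32.5 CPM in saline, against 49.5, 53.4 and 47.0 CPM on the normal diet. They had 55.2, 63.1 and 54.2 CPM at 1 day, against 121, 79.4 and 115 CPM on the normal diet, and 75.2, 78.8 and 79.7 CPM at 3 days, against 98.0, 94.1 and 94.1 CPM on the normal diet. The diets did not overlap, and the gap was widest at 1 day (log2 -0.49 in saline, -0.87 at 1 day and -0.29 at 3 days; unadjusted p for a difference between conditions 0.027). The mean log2 ratio was -0.55 ± 0.08, 1.47-fold lower (edgeR adjusted p = 0.00592).

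Apcdd1, an inhibitor of Wnt signalling at the cell surface, had 25.6 ± 2.10, 27.5 ± 8.84 and 28.2 ± 5.55 CPM on the vitamin A diet in saline, at 1 day and at 3 days, against 39.5 ± 2.31, 40.3 ± 4.04 and 52.1 ± 4.15 CPM on the normal diet (chromosome 18, 63055398 to 63086886, plus strand). The diets overlapped at 1 day through vitamin A replicate 1, with 37.6 CPM. On average the log2 ratio was -0.69 ± 0.11, 1.61-fold lower (edgeR adjusted p = 0.00989), with no single condition past the threshold.

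Omp, known as a marker of olfactory neurons, had 9.46 ± 1.197, 32.0 ± 10.4 and 10.9 ± 1.59 CPM on the vitamin A diet in saline, at 1 day and at 3 days, against 6.61 ± 0.76, 10.7 ± 3.08 and 6.89 ± 2.02 CPM on the normal diet (chromosome 7, 97792566 to 97794654, minus strand). Its mean log2 ratio was 0.92 ± 0.15, or 1.89-fold (edgeR adjusted p = 0.0156; unadjusted p for a difference between conditions 0.0201). Its diets overlapped at 3 days only. The edgeR adjusted p was 0.0507 without normal diet saline replicate 1 and 0.0511 without normal diet saline replicate 3. Omp lies inside Capn5 on the same strand, and Capn5 averaged 298 CPM over all libraries with a mean log2 ratio of 0.22 (edgeR adjusted p = 0.736). Counts of Omp are therefore uncertain, since the counting could assign reads of either gene to the other.

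**Figure D3:**
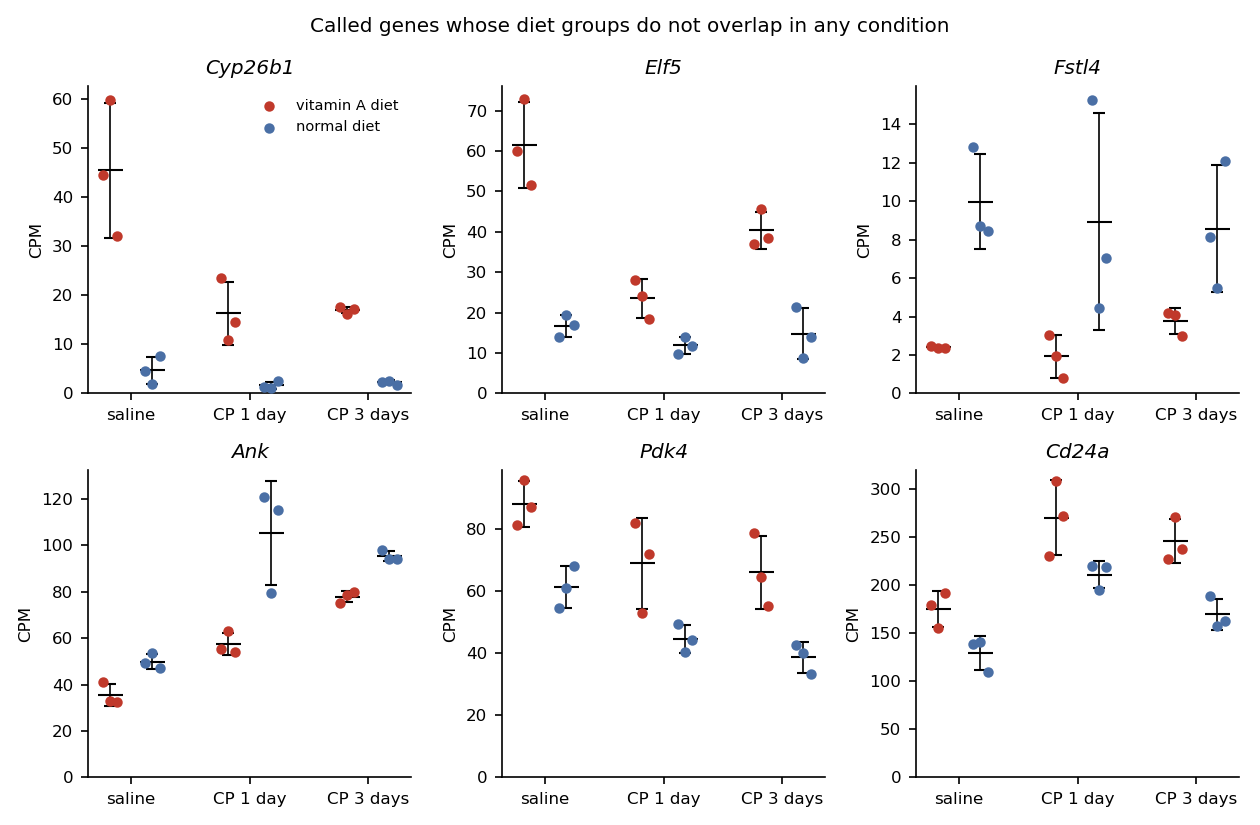
CPM (y axis) of the 6 genes past the threshold whose vitamin A and normal diet bladders did not overlap in any of the 3 conditions (x axis). Points are single bladders, red for the vitamin A diet on the left of each pair and blue for the normal diet, and black bars are mean ± SD with n = 3. Cyp26b1, Elf5, Pdk4 and Cd24a are higher on the vitamin A diet and Fstl4 and Ank are lower.

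How the 3 conditions entered the average differed between genes. In 14 of the 15 genes the diet difference had the same sign in saline, at 1 day and at 3 days, Adamdec1 being the exception, and 28.6% of all genes tested had 1 sign throughout. The 15 were picked by the mean of these same differences, so that count and the overlap counts that follow describe them and test nothing. In 6 of the 15 the libraries of the 2 diets did not overlap in any condition, as was so for 20 of the 19323 genes (0.104%; 13 higher, 0.0673%, and 7 lower, 0.0362%). Among those of the 20 that missed the threshold were Rarb, Pkp1, the choline kinase gene Chka (mean log2 0.43 ± 0.08, edgeR adjusted p = 0.0629), the cation channel gene Trpv4 (0.28 ± 0.08, 0.256) and Gkn3 (1.90 ± 0.43, 0.132), a gastrokine. Within single conditions the diets did not overlap in 13 of the 15 genes in saline, 14 at 1 day and 9 at 3 days, against 15.4%, 15.8% and 6.62% of all genes tested. The diet difference of 9 of the 15 was largest at 1 day after CP. The pooled value had a smaller error than any of its parts, with a median SE of 0.14 over all genes, against 0.25 in each single condition, and Pdk4, Apcdd1, Hk2, Fcrls and Cd24a passed on the average alone.

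**Figure D4:**
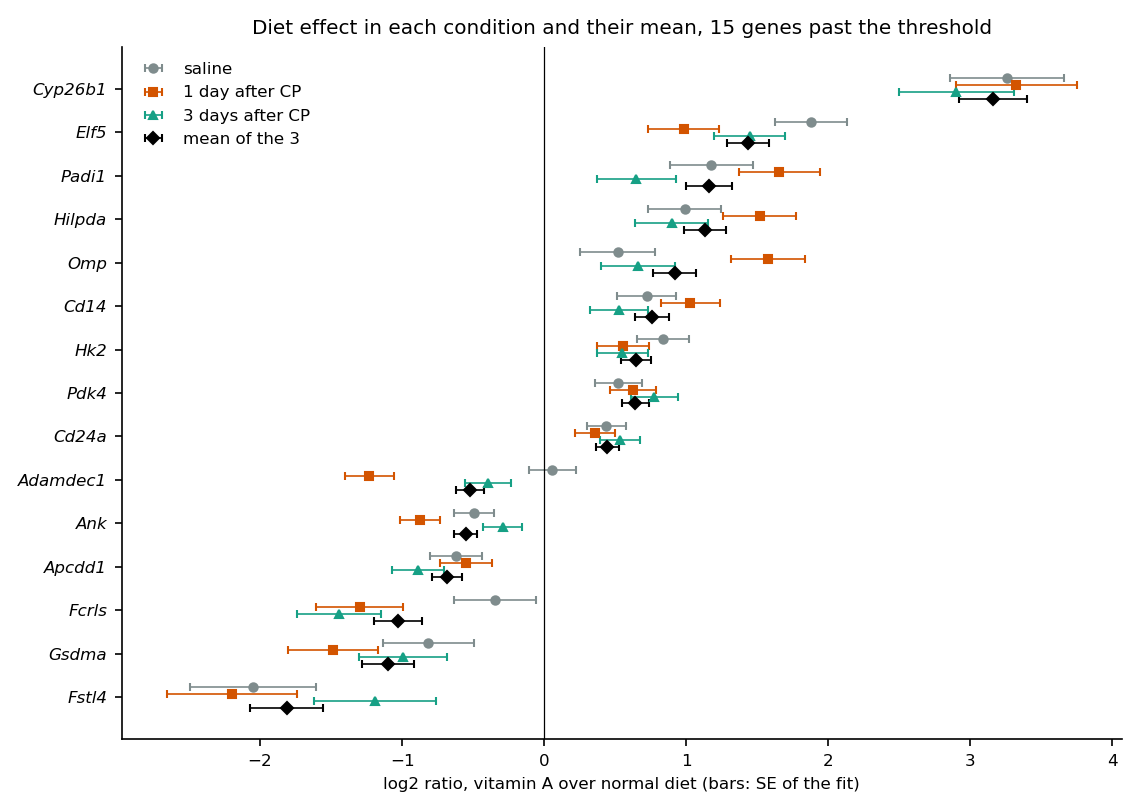
Log2 ratio of vitamin A over normal diet (x axis) for the 15 genes (y axis), in saline (grey circles), at 1 day (orange squares), at 3 days (green triangles) and as the mean of the 3 (black diamonds). Bars are the SE of the edgeR fit. The 4 symbols of a gene lie on 1 side of 0 for 14 genes, and Adamdec1 in saline lies at 0.06.

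Taken singly, the conditions gave 2 genes in saline (0.0104%), 90 at 1 day (0.466%) and 1 at 3 days (0.00518%) by the same edgeR test. The average shared 2 of its genes with saline (Cyp26b1 and Elf5), 9 with 1 day and 1 with 3 days (Cyp26b1). Of the 90 genes at 1 day, 81 did not pass on the average, 38 had 1 sign in all conditions, and 21 had the opposite sign in both other conditions. With 1 library left out the saline count was 0 to 5 (normal diet replicate 1 out, 0; replicate 3 out, 1; vitamin A replicate 2 out, 1; vitamin A replicate 2 of 1 day out, 5). The 3-day count was 0 without any 1 of the 3 vitamin A replicates or of normal diet replicates 2 and 3. The 1-day count was 305 with vitamin A replicate 1 left out, 4 with vitamin A replicate 3 left out, 0 with normal diet replicate 1 left out and 20 with normal diet replicate 3 left out. It was 185 without vitamin A replicate 2 at 3 days, 54 without vitamin A saline replicate 2, and 59, 47 and 52 without normal diet saline replicates 1, 2 and 3.

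The weight of 1 condition in the average was tried by leaving it out. Without the 1-day difference, 2 genes remained past the threshold, Cyp26b1 and Elf5. The other 13 then had edgeR adjusted p-values of 0.101 to 0.856, among them Hilpda at 0.118 with a log2 ratio of 0.94, Fstl4 at 0.118 with -1.62 and Pdk4 at 0.104 with 0.65. Without the saline difference 19 genes passed, with 13 of the 15 among them and Cd24a (0.126) and Hk2 (0.149) lost. Without the 3-day difference 12 passed, with 8 of the 15 among them, and 2 of the 12 were lower on the vitamin A diet. The 7 lost were Pdk4 at 0.0721 with a log2 ratio of 0.575, Hk2 at 0.0563 with 0.694, Cd24a at 0.167 with 0.398, Apcdd1 at 0.115 with -0.586, Gsdma at 0.0721 with -1.15, Fcrls at 0.171 with -0.821 and Adamdec1 at 0.0721 with -0.586. In a model with 1 diet term common to the 3 conditions 15 genes passed, with 12 of the 15 among them, and Omp (0.0553), Fcrls (0.0553) and Adamdec1 (0.457) did not.

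No gene passed the test for a difference of the diet effect between conditions by edgeR (0%), at an unadjusted p under 0.05 there were 1358, and DESeq2 called 141 and limma voom 105. The edgeR count was 20 without vitamin A replicate 1 at 1 day, 2 without vitamin A replicate 2 at 1 day, and 1 without vitamin A replicate 2 or normal diet replicate 2 at 3 days. The smallest p belonged to Epha2, an ephrin receptor kinase of epithelia (chromosome 4, 141028532 to 141056695, plus strand). The 1-day values were 124, 118 and 169 CPM on the vitamin A diet and 60.5, 41.0 and 57.1 CPM on the normal diet. In saline it had 16.6, 17.8 and 13.7 CPM on the vitamin A diet and 23.4, 29.7 and 24.1 CPM on the normal diet, and at 3 days 46.2, 32.9 and 58.7 CPM on the vitamin A diet and 99.1, 42.2 and 71.4 CPM on the normal diet. The 1-day values were higher on the vitamin A diet without overlap, the saline values lower without overlap, and the 3-day values overlapped. Its differences of log2 -0.68 in saline, 1.37 at 1 day and -0.62 at 3 days averaged to 0.02 ± 0.15 (unadjusted p for a difference 2.14e-05; edgeR adjusted p = 0.165). Next came Clu, a secreted chaperone, with log2 -0.16 in saline, 1.09 at 1 day and -0.51 at 3 days, Dusp6, a phosphatase of ERK kinases, with -0.21 in saline, 1.16 at 1 day and -0.21 at 3 days, Gm39876 with -1.79 in saline, 1.45 at 1 day and 0.22 at 3 days, and Slc2a1, the glucose transporter GLUT1, with -0.26 in saline, 1.00 at 1 day and 0.20 at 3 days, each at an edgeR adjusted p of 0.165.

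Several gene lists held medians of both signs across the conditions. In the cell cycle list 34 of 39 mean log2 ratios were positive with a median of 0.19, from medians of 0.02 in saline, 0.96 at 1 day and -0.31 at 3 days, and 1 gene had 1 sign throughout. In the list of MHC class II presentation the median was -0.33, from 0.47, -0.99 and -0.59, and in that of lymphocyte markers -0.47, from 0.61, -1.45 and -0.36, in the same order of conditions. In saline, vitamin A replicate 3 stood above the rest in both lists. The summed MHC class II level there was 596, 435 and 1039 CPM on the vitamin A diet and 409 to 550 CPM on the normal diet. The lymphocyte sums were 34.5, 29.8 and 101 CPM on the vitamin A diet and 28.3 to 46.4 CPM on the normal diet. At 1 day the lymphocyte sums of the normal diet were 13.3, 44.7 and 15.4 CPM, against 8.94 to 13.4 CPM on the vitamin A diet. H2-Aa, an MHC class II chain, had 91.0, 67.1 and 139 CPM in vitamin A saline bladders and 81.8, 70.5 and 55.4 CPM in normal diet saline bladders. At 1 day it had 15.3, 11.5 and 13.0 CPM on the vitamin A diet and 38.9, 39.9 and 28.8 CPM on the normal diet, and at 3 days 21.6, 20.2 and 12.7 CPM on the vitamin A diet and 27.0, 22.8 and 33.1 CPM on the normal diet. Its vitamin A values overlapped the normal diet in saline and lay below it at 1 and 3 days, and the mean log2 ratio was -0.51 ± 0.14 (edgeR adjusted p = 0.272; unadjusted p for a difference between conditions 0.000109). The list of acute inflammatory cytokines and chemokines had 19 of 20 mean log2 ratios above 0 and medians of 0.37 in saline, 1.53 at 1 day and 0.48 at 3 days (0.71 on the average). The sums of that list overlapped between the diets in each condition. In saline they were 26.9, 19.2 and 36.9 CPM on the vitamin A diet and 20.3 to 20.7 CPM on the normal diet. They were 156, 388 and 449 against 117 to 163 CPM at 1 day, and 97.4 to 158 against 71.1 to 128 CPM at 3 days. There the monocyte chemokine Ccl2 had a mean log2 ratio of 0.89 ± 0.26 (edgeR adjusted p = 0.312). The interferon list had 27 of 33 above 0 with a median of 0.15, and the endothelial list 16 of 18 below 0 with a median of -0.12. In saline, at 1 day and at 3 days the interferon medians were 0.53, 0.10 and -0.05, and the endothelial medians 0.02, -0.08 and -0.27. The interferon sums in saline were 584, 494 and 771 CPM on the vitamin A diet and 472 to 497 CPM on the normal diet. None of these lists held a gene past the threshold. Over all genes tested 50.2% of mean log2 ratios were above 0.

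**Figure D5:**
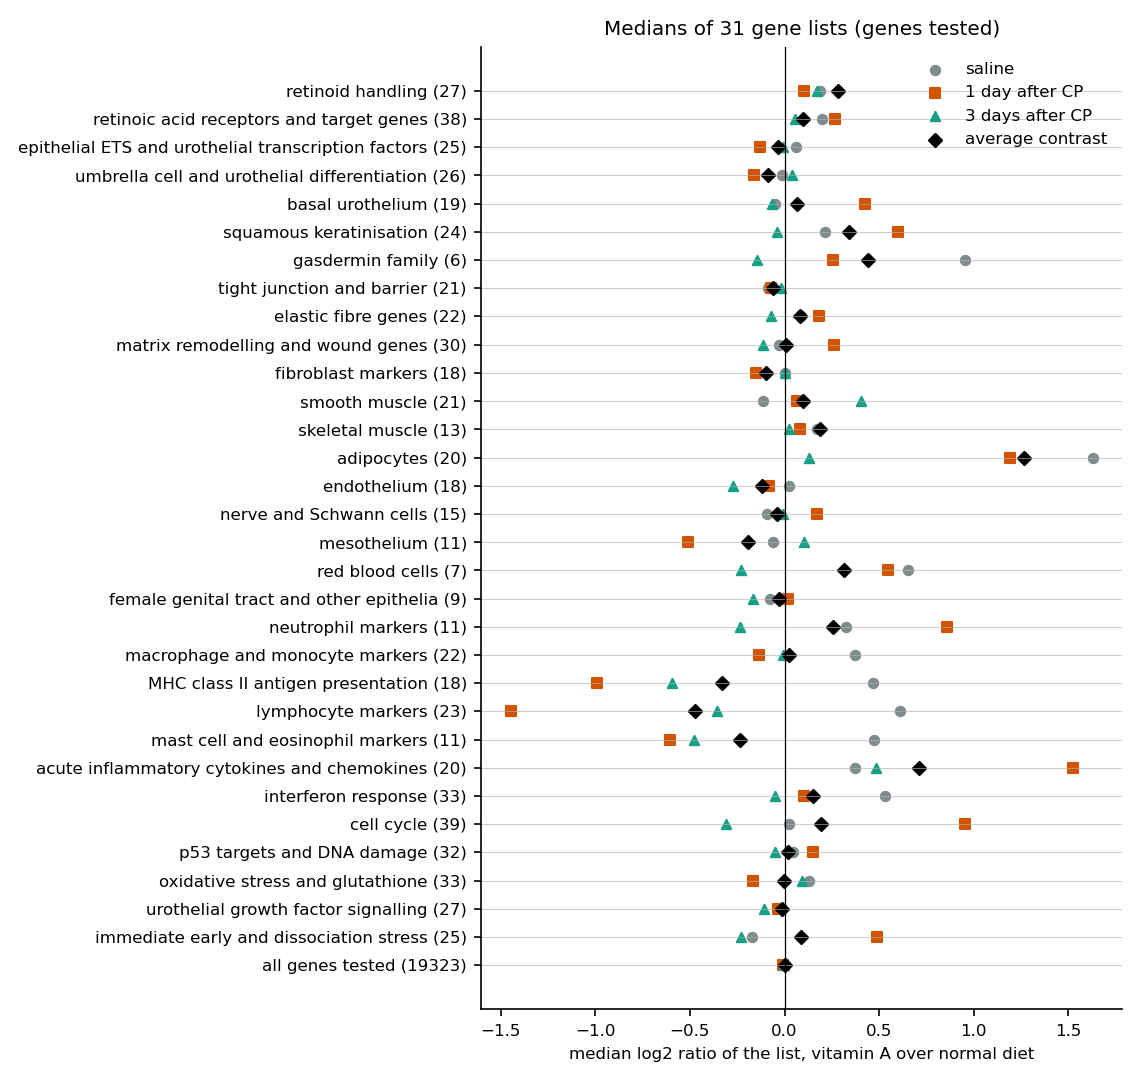
Median log2 ratio of vitamin A over normal diet (x axis) of the 31 gene lists and of all genes tested (y axis, with the number of genes tested), in saline (grey circles), at 1 day (orange squares), at 3 days (green triangles) and in the average contrast (black diamonds). The adipocyte list has the highest average median, 1.27, and the cell cycle, lymphocyte and MHC class II lists have symbols on both sides of 0.

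The authors' deposited tables of the same 3 diet comparisons list 1860 named genes in saline, 1942 at 1 day and 479 at 3 days, all with an unadjusted p under 0.05. Of the genes in all 3 of the authors' deposited tables, 38 in number, 16 were higher and 6 lower on the vitamin A diet throughout, and 16 had opposed signs. Of the 15 genes past the threshold on the average, 12 stood in all 3 of the authors' deposited tables with 1 sign. The other 3 were Ank, which the authors' deposited table at 3 days does not list, and Adamdec1 and Fcrls, which that of saline does not list. In the authors' deposited tables Elf5 had log2 ratios of 1.87, 0.98 and 1.46, with adjusted p-values of 9.24e-27, 0.00661 and 0.0115, in saline, at 1 day and at 3 days. The tables give normal over vitamin A, and the sign is turned here. Among the genes they list with 1 sign throughout that missed the threshold of the average were Lrat, Krt20, Pkp1, Trim29 and Sox9.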

How the data were processed

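Whole bladder RNA of 18 mice was sequenced, 3 per group. The authors deposited whole-number counts per gene and FPKM per gene, used here to compare levels between genes. Per the submitters' processing notes, HISAT2 2.0.5, featureCounts 1.5.0-p3, DESeq2 1.20.0 and GRCm39 were used, and no source used here gives the strandedness. The authors' deposited tables hold log2 ratios and p-values.

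Tests used edgeR 4.0.16 under R 4.3.3 (robust quasi-likelihood, TMM scaling, filterByExpr, 1 mean per group, 12 residual degrees of freedom), Benjamini-Hochberg adjustment over 19323 genes and a threshold of 0.05, 2-sided. A test with 2 numerator degrees of freedom compared the 3 diet differences. Alternatives used DESeq2 1.42.0 and limma 3.58.1 among others. Of 60750 features, 14417 were unnamed (0.474% to 0.810% of counts) and left out. CPM are counts per 1000000 of the TMM-scaled total of named genes. Within a single condition, with 3 libraries a side, an exact permutation p is at least 0.1. The p-values set diet differences against the spread between these mice, and cage and group cannot be told apart.

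Genes were named by fixed rules: genes past the threshold, the smallest p each way, the smallest p for a difference, retinoid lists, up to 4 per other list, 12 fixed genes, and genes whose diets did not overlap. Further genes were Capn5, Myh11, Cyp26a1 and Cyp26c1, as overlap, tissue marker and family. The members and the 31 gene lists, written from general knowledge, were chosen with earlier results of these data known. The test was checked on simulated counts.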

Additional observations from a re-analysis of the deposited data

How the results depend on the processing

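The average effect passed the threshold for 15 genes (9 higher, 6 lower on the vitamin A diet). All 15 also passed with RLE scaling (16 genes) and upper quartile scaling (17). Without the low count filter 41 passed (28 higher, 13 lower), with DESeq2 124 (85 higher, 39 lower), with limma voom and sample weights 105 (73 higher, 32 lower), and without both libraries that stood apart 31 (22 higher). That last alternative was chosen after seeing the data. Without the 1-day difference 2 passed (2 higher, 0 lower), and without the 3-day difference 2 were lower. Leaving out 1 library gave 11 to 71 genes, 7 to 36 higher and 3 to 35 lower.

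The test of a difference between conditions called 0 genes, 16 without the filter, 1 without the libraries that stood apart, 141 with DESeq2, 105 with voom and 0 to 20 with 1 library left out. In saline 2 genes passed, 7 without the filter, 35 in a fit of those 6 libraries, 17 with DESeq2, 232 with voom and 0 to 5 with 1 library left out. At 1 day 90 passed, 2 in a fit of those 6 libraries, 499 with DESeq2 and 0 to 305 with 1 library left out. At 3 days 1 passed, 0 without the filter, 0 without the libraries that stood apart, 11 with DESeq2, 7 with voom and 0 to 1 with 1 library left out. The cause was not tested.

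With the replicate number as a block, 11 genes passed on the average (5 higher), 1 for a difference between conditions, 0 in saline, 56 at 1 day and 0 at 3 days. Of the 11, 8 were among the 15, and Cd24a (0.188), Adamdec1 (0.0653), Ank (0.0653), Padi1 (0.0505), Cd14 (0.0679), Omp (0.111) and Fcrls (0.0679) did not pass, by edgeR adjusted p. Same-numbered libraries of the 2 diets correlated at -0.111 to 0.115, and 3 of 9 matched best with their own number. The labels do not say whether the numbers pair the mice, and these values cannot settle it.

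Over 208 named genes, 6387 values under alternatives kept their side of the threshold, 66 fell below it and 129 came above it. In 143 of the 6387, below it both times, the sign turned. With 3 mice per group, small changes such as that of Cd24a were at the limit of what could be called.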
